A study of Mus musculus with 12 samples.

Results

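The 43 genes described here encode the machinery that copies DNA in S phase, from the factors that license origins to the enzymes that supply nucleotides and package new chromatin. They were taken by gene symbol from a written list, and all 43 were found among the 16106 genes of the deposited table. The list names genes by function, and it was drawn up with earlier results of these data known. RNA was sequenced from neural stem and progenitor cells (NSPCs), grown as neurospheres from the whole cortex of C57BL/6 mouse embryos at embryonic day 14.5 and used at passage 3. Neurospheres are floating clusters of dividing stem and progenitor cells, and they can also hold some of their differentiating progeny. The 4 groups were female vehicle, female pravastatin, male vehicle and male pravastatin, each of 3 libraries. Pravastatin, a statin that inhibits HMG-CoA reductase, was given at 10 μM for 24 hours, and vehicle was PBS. Each embryo gave 1 culture, taken here to have been split between vehicle and pravastatin, so that 6 cultures gave 12 libraries. No genetic change or other agent was named for any group.

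Before S phase, the origin recognition complex, Cdc6 and Cdt1 load the MCM helicase onto DNA, and Cdc45 and the GINS complex then join it to make the active helicase. Primase and DNA polymerase alpha lay down primers, the clamp loader places the PCNA clamp, and DNA polymerases delta and epsilon extend the new strands, while Fen1 and DNA ligase join the fragments of the lagging strand. Many of these genes are transcribed at the passage from G1 into S phase by E2F factors, so their mRNAs are widely used as marks of cycling cells. In cortical progenitors they are high in dividing cells and are switched off as cells leave the cycle.

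Sequences before the start site were read for an E2F-type motif, because E2F factors are the best known regulators of the family. RefSeq sequences (GRCm38.p6), covering 250 bases before to 50 bases after the start, were matched for 36 of the 43 members. The motif was searched as TTTCCCGC, TTTCGCGC, TTTGCCGC or TTTGGCGC on both strands. It was found in 13 of the 36 members (36.1%) and in 2.605% of the 27025 genes with a sequence. The 13 were Orc1, Cdc6, Cdt1, Mcm3, Mcm5, Mcm6, Mcm7, Gins3, Pola1, Pold1, Rfc3, Lig1 and Uhrf1. The sequence CCAAT was found in 22 of the 36 (61.1%) against 41.1% of all genes, and TTTGAA in 4 (11.1%) against 20.2%. A match describes the letters in this window and does not show that a factor binds there. Matches to the E2F-type motif lay before the start site in 9 members. For 3 of these the 250 bases before the start lay wholly outside the annotated gene (GENCODE vM21), and they are printed on the strand of the gene with each match in capitals. Mcm5 has 2 overlapping matches on opposite strands (chr8:75109259-75109508, plus strand), Mcm6 has 3 matches (chr1:128359706-128359955, minus strand) and Pola1 has 1 (chrX:93632156-93632405, minus strand).
Mcm5: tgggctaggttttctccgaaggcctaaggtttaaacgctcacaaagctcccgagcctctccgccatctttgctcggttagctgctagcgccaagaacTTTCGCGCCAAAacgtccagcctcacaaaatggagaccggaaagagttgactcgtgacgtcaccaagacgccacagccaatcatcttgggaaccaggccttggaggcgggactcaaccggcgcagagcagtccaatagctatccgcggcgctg
Mcm6: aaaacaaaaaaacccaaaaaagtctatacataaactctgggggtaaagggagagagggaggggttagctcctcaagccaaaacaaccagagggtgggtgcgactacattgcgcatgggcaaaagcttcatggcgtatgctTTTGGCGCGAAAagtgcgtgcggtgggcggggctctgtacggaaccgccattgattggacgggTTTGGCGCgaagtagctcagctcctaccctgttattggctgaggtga
Pola1: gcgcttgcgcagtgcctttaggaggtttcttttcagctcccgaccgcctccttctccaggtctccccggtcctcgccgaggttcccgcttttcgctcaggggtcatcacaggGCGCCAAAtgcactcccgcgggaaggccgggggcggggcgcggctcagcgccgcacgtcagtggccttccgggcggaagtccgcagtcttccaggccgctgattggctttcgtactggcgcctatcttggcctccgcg

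The deposited values are reads per gene divided by the effective size of each library. Libraries held 13353619 to 18422845 reads, and their deposited values summed to 962669 to 1052479, so a value is close to a CPM. The members ranged from 3.70 to 352.5 in the 12 libraries, and the fewest reads behind any member value was 56. All 43 passed the filter on low values in each comparison. Values were also divided by the merged length of all annotated exons of a gene (GENCODE vM21). On this scale the male vehicle libraries gave the highest level for Rrm2, the small subunit of ribonucleotide reductase, at 86.4 ± 2.09 per kb (SD, n = 3), followed by Pcna at 69.2 ± 0.36. Rrm1, with the highest undivided value, stood at 30.04 ± 1.78 over 11012 exon bases, against 2771 for Rrm2. The order per kb thus depends on the annotated exons. The lowest levels per kb were those of Ung (4.13 ± 0.41), which removes uracil from DNA, and of Orc1 (4.28 ± 0.05), and these neighbours did not differ beyond their spread. The subunits of the MCM hexamer lay between 31.02 ± 1.71 for Mcm2 and 55.7 ± 2.27 for Mcm4. In bulk RNA, fewer cells that express a gene and less RNA in each cell cannot be told apart.

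Libraries of female cultures 2 and 3 stood apart. Gfap, an astrocyte filament gene, was above 50 in these 4 libraries (69.3 to 507) and between 3.96 and 8.31 in the other 8. Of 10 astrocyte markers, Gfap among them, 8 were higher in all 4 than in any of the 8, as were 14.6% of the genes tested. The summed list, with Gfap in it, ran from 2547 to 3779 against 1534 to 2196. Since these libraries were set apart by Gfap, its own place among the higher markers was fixed in advance. Of 10 oligodendrocyte markers 8 were listed, and all 8 were higher in the 4 libraries, with sums of 409 to 973 against 108 to 190. Defining markers Mog and Mobp were not listed. The 13 markers of neural stem cells and radial glia, Sox2 and Nes among them, were above 1 in every library, with sums of 7492 to 8578 in the 4 and 7012 to 8268 in the 8, and 4 of them lay above and 1 below in all 4. Of 13 neuron markers 10 were listed, 3 of them higher in all 4 libraries, with sums of 964 to 1102 against 826 to 979.6. Of the 4 oligodendrocyte precursor markers 1 lay above and 1 below in all 4, with sums of 1384 to 1562 against 1450.5 to 1869. Few markers of microglia (1 of 7), endothelium (3 of 6), mural cells (2 of 6) or erythroid cells (1 of 5) were listed. The treatment left its usual mark: Hmgcs1, a cholesterol synthesis gene that cells raise when the pathway is blocked, rose by 1.67 ± 0.10 on the log2 scale in both sexes together (SE, adjusted p = 8.68e-07).

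Replication genes were lower in the libraries of female cultures 2 and 3 with either treatment. The 43 members summed to 0.159% to 0.262% of these 4 libraries and to 0.283% to 0.439% of the other 8. In 30 of 43 members all 4 libraries lay below each of the other 8, as did 10.9% of the genes tested, while 14.6% of genes lay above in all 4. With vehicle alone, both libraries of these cultures lay below the other 4 vehicle libraries for all 43 members, against 29.8% of genes. These libraries are set apart by a measured gene and come from only 2 cultures, so the difference is described and was not tested. The part that other cell types have in it was not tested.

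**Figure D1:**
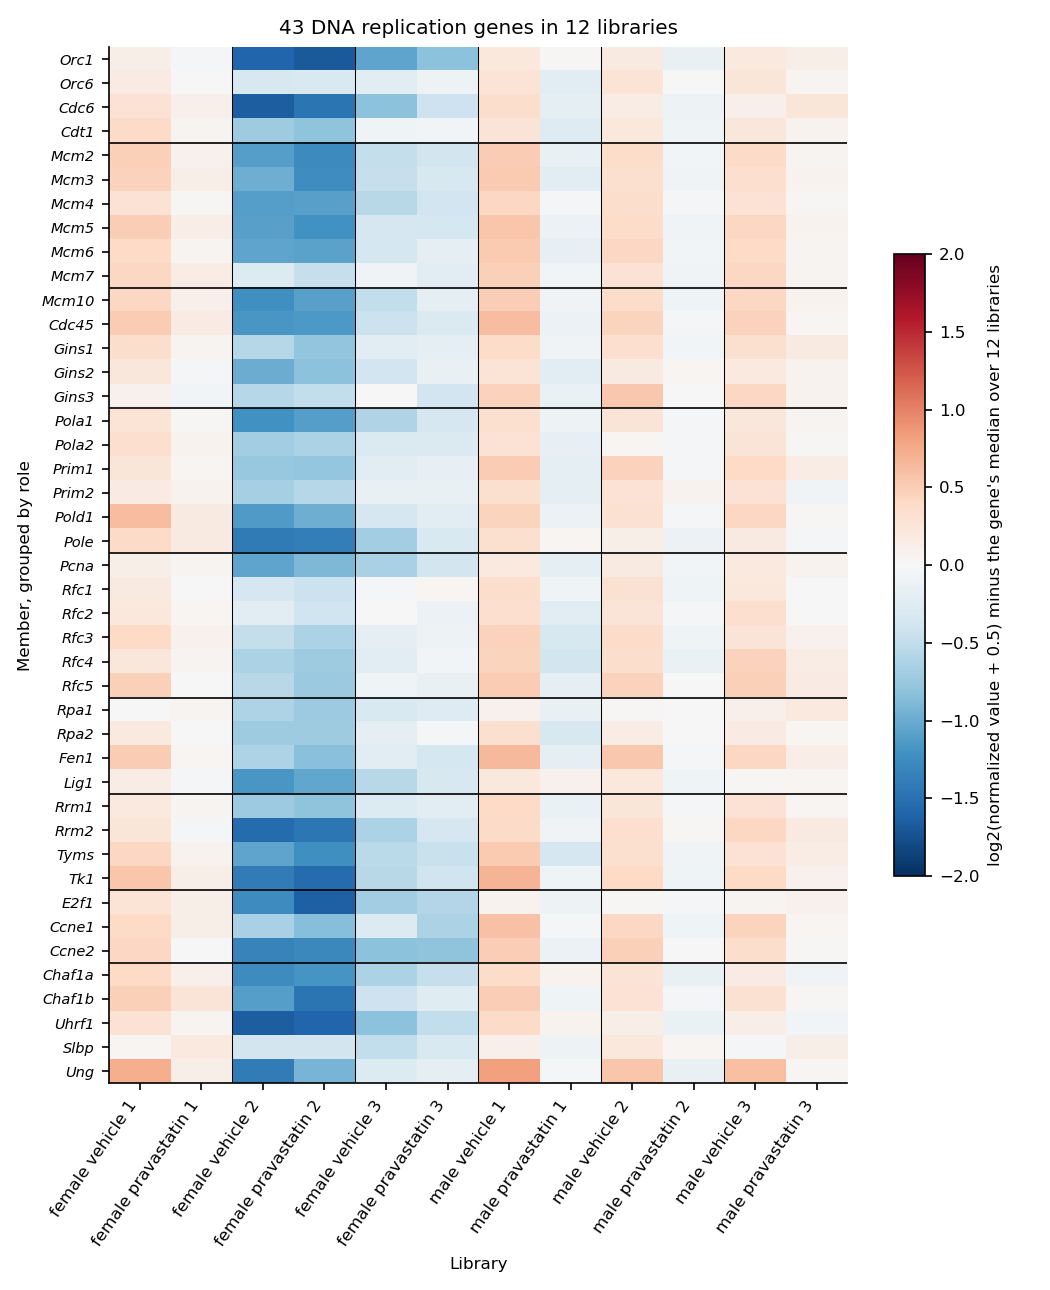
Level of each of the 43 DNA replication genes (rows, grouped by role) in the 12 libraries (columns, paired by culture), as log2(normalized value + 0.5) minus the median of the gene over the 12 libraries. The libraries of female cultures 2 and 3 are blue for most genes, and the vehicle libraries of the other 4 cultures are the reddest for most genes.

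Between these cultures the size of the gap differed from gene to gene. Female vehicle 2 stood at 21.2% (Ung) to 75.7% (Slbp) of female vehicle 1, with a median of 40.0% over the 43 members. Female vehicle 3 stood at 41.6% to 93.9%, with a median of 59.5%, and 42 of 43 members were lower in female vehicle 2 than in female vehicle 3. The exception was Slbp, which encodes the protein that binds the stem-loop of histone mRNAs. The members of the S phase entry, nucleotide supply and chromatin groups lay below in all 4 libraries without exception (3 of 3, 4 of 4 and 5 of 5), whereas only Pcna did among the 6 genes of the clamp and its loader. The lowest value relative to the other cultures was that of Ung, where the vehicle and the treated library of female culture 2 stood at 5.02 and 7.13, those of culture 3 at 11.6 and 12.4, and the other 8 at 12.7 to 25.1. Cdc6, which loads the helicase, was at 9.81 and 11.2, at 17.9 and 23.8, and at 28.2 to 40.7. Tk1, the thymidine salvage kinase, was at 8.71 and 7.92, at 16.0 and 18.03, and at 22.5 to 38.4. For all 3 genes both female cultures lay below every other library, and culture 2 lay below culture 3.

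With pravastatin, 30 of the 43 members fell in male cultures and none rose, where 4.36% of 15221 genes fell and 6.08% rose (limma, adjusted p under 0.05 over all genes). The members' median log2 fold change was -0.36, against -0.00 over all genes, and ranged from -0.71 for Ung to -0.06 for E2f1. All 43 estimates were below 0. Only Ung changed by more than 1.5-fold, as did 0.342% of genes in this direction. In 38 of 43 members the 3 pravastatin libraries all lay below the 3 vehicle libraries, against 17.8% of genes. With the culture as a block 35 members fell, against 8.78% of genes. The extra 5 were Gins1, Pole, Pcna, Rpa2 and Uhrf1. Summed marker lists of cell types did not all move with the fall. In male cultures the 4 oligodendrocyte precursor markers summed to 1619 to 1869 with pravastatin against 1450.5 to 1604 with vehicle. The 10 listed neuron markers summed to 930.4 to 979.6 against 856 to 926. In the deposited values neither list overlapped between the groups. Astrocyte markers (1891 to 2196 against 1779 to 1985), oligodendrocyte markers (143 to 190 against 129 to 163) and stem cell and radial glia markers (7028 to 7318 against 7065 to 8268) overlapped between the male groups. Deposited values in male pravastatin libraries 1, 2 and 3 summed to 1052479, 1011564 and 1009366, against 970411, 979577 and 962669 with vehicle. The list sums were not rescaled to these totals. Divided by them, the precursor and neuron sums would overlap between the male groups, so their separation depends on the scaling. The share of all genes higher in all male pravastatin libraries was not counted. A single neuron marker reached 990 in its highest library, so 1 gene can make up most of that sum. The part of these lists in the fall was not tested. Without male vehicle 1 the count was 18, and without male vehicle 2 it was 19. Of the 30 calls, 17 held without any 1 male library. The other 13 were Orc6, Cdt1, Gins3, Pola1, Prim2, Rfc1, Rfc3, Rfc4, Rrm1, Rrm2, Tyms, Chaf1a and Chaf1b, with an adjusted p of up to 0.134 when 1 library was left out.

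**Figure D2:**
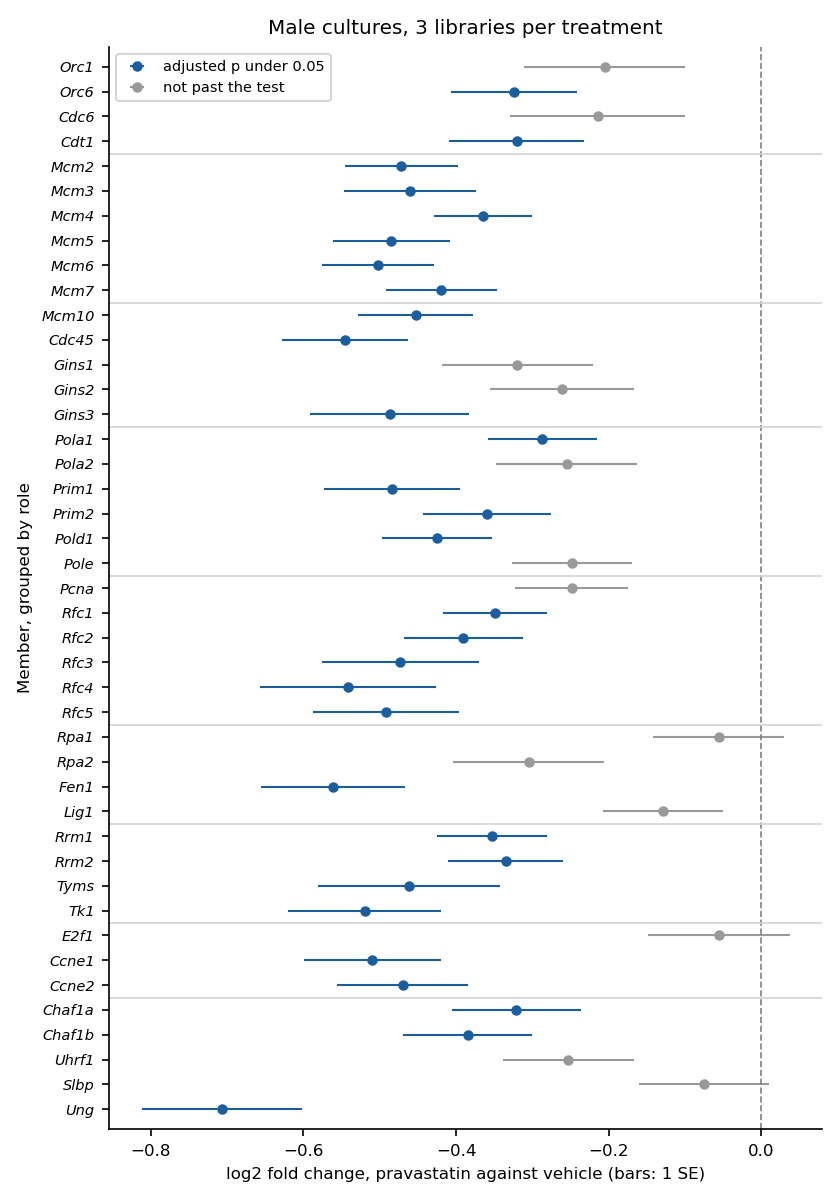
Log2 fold change of pravastatin against vehicle in male cultures (x axis, points with bars of 1 SE, 3 libraries per treatment) for each member (y axis, grouped by role). All 43 points lie below 0, 30 of them past an adjusted p of 0.05 (blue) and 13 not (grey), with Ung farthest to the left at -0.71.

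The MCM hexamer, which unwinds DNA at the fork, fell as a whole in male cultures, with 6 of 6 subunits past the test and a median of -0.47. Mcm5 stood at 216, 189.8 and 196 in male vehicle libraries 1, 2 and 3 and at 135, 139.6 and 155 in the pravastatin libraries. The groups did not overlap, and every male culture was lower with pravastatin (log2 fold change -0.48 ± 0.08, SE, adjusted p = 0.00226). In female cultures 1, 2 and 3 Mcm5 was at 206, 69.0 and 116 with vehicle and at 162, 63.5 and 115 with pravastatin. Female culture 1 thus moved from the level of the male vehicle libraries toward that of the treated ones, and cultures 2 and 3 lay below both at either treatment. Mcm7 was at 156, 137 and 149 with vehicle and at 108, 106 and 116 with pravastatin in male cultures, again without overlap (-0.42 ± 0.07, adjusted p = 0.00419). In females it was at 148, 92.0 and 107 and at 123, 81.1 and 96.7, lower with pravastatin in each culture. Mcm6 had the smallest adjusted p of all 43 members in males (-0.50 ± 0.07, adjusted p = 0.00133). Its values were 249.6, 232 and 229 with vehicle and 155, 167 and 179.8 with pravastatin.

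Of the 4 licensing factors, Orc6 and Cdt1 fell in males. Orc6, a subunit of the origin recognition complex, went from 76.1, 76.6 and 74.7 to 53.8, 62.9 and 65.3 in cultures 1, 2 and 3 (-0.32 ± 0.08, adjusted p = 0.0302). Cdt1, which brings the helicase to origins, went from 56.9, 55.4 and 56.3 to 40.0, 45.0 and 50.3 (-0.32 ± 0.09, adjusted p = 0.0423). Neither pair of groups overlapped. Both calls were lost without male vehicle 1, 2 or 3 or male pravastatin 2, and that of Cdt1 also without male pravastatin 1, with an adjusted p of up to 0.117 for Orc6 and 0.123 for Cdt1. Orc1 and Cdc6 did not pass (adjusted p = 0.235 and 0.253), and the male groups of Cdc6 overlapped.

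In the group that turns the loaded hexamer into an active helicase, 3 of 5 members fell in males. Cdc45 was at 61.9, 54.8 and 55.2 with vehicle and at 36.9, 38.9 and 41.5 with pravastatin (-0.55 ± 0.08, adjusted p = 0.00162). Gins3, a subunit of the GINS complex, was at 16.2, 17.1 and 15.7 and at 10.6, 11.7 and 12.3 (-0.49 ± 0.10, adjusted p = 0.0134). Its call was lost without male vehicle 1 or 2, with an adjusted p of up to 0.0770. Mcm10, which helps to activate the helicase, fell by 0.45 on the log2 scale (SE 0.08). The other GINS subunits in the list did not pass: Gins1 was at 22.6, 22.2 and 21.8 and at 16.6, 16.8 and 19.9 (-0.32 ± 0.10, adjusted p = 0.0613), and Gins2 had an adjusted p of 0.101.

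Among primase and polymerase genes 4 of 6 fell in males. Prim1, the catalytic subunit of primase, was at 62.7, 60.8 and 58.1 with vehicle and at 38.8, 42.7 and 48.4 with pravastatin (-0.48 ± 0.09, adjusted p = 0.00603). Prim2, the large subunit, was at 46.4, 45.6 and 45.6 and at 32.6, 39.1 and 35.6 (-0.36 ± 0.08, adjusted p = 0.0212). The groups did not overlap for either gene, and the call of Prim2 was lost without male vehicle 1, 2 or 3 (adjusted p up to 0.0846). Pola1 and Pold1, the catalytic subunits of polymerases alpha and delta, fell by 0.29 and 0.43 on the log2 scale. Pole, the catalytic subunit of polymerase epsilon, and Pola2, the second subunit of polymerase alpha, did not pass (adjusted p = 0.0664 and 0.103).

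All 5 clamp loader subunits fell in males, by 0.35 (Rfc1) to 0.54 (Rfc4) on the log2 scale. Rfc5 was at 42.8, 41.6 and 41.6 with vehicle and at 26.2, 29.8 and 33.6 with pravastatin (-0.49 ± 0.10, adjusted p = 0.00834). Rfc2 was at 84.6, 80.5 and 85.2 and at 57.7, 65.9 and 67.3 (-0.39 ± 0.08, adjusted p = 0.00946). Both genes were also lower with pravastatin in each of the 3 female cultures, from 42.0, 20.2 and 28.3 to 30.0, 17.6 and 27.1 for Rfc5 and from 78.0, 57.9 and 67.2 to 68.9, 50.7 and 62.3 for Rfc2. Pcna, the clamp itself, was at 167, 165 and 166 and at 128, 140.0 and 152 in males, groups that did not overlap. It missed the threshold (-0.25 ± 0.07, adjusted p = 0.0530) and passed it with the culture as a block (adjusted p = 0.0207).

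Single-strand binding and Okazaki fragment genes were divided, and 1 of 4 fell. Fen1, the nuclease that trims the flaps between fragments, went from 86.0, 79.3 and 72.8 to 47.9, 53.2 and 60.0 in males (-0.56 ± 0.09, adjusted p = 0.0035). It was lower with pravastatin in females too, from 78.1, 35.4 and 46.8 to 56.0, 30.3 and 42.9. Every culture showed this direction, and the male groups did not overlap. Rpa2, a subunit of the single-strand binding protein RPA, was at 69.4, 61.8 and 62.5 and at 44.7, 55.1 and 57.4 in males (-0.30 ± 0.10, adjusted p = 0.0724). Rpa1, the large subunit of RPA, and Lig1, the ligase that seals the fragments, had overlapping male groups and adjusted p of 0.716 and 0.310.

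Nucleotide supply genes all fell in males (4 of 4, -0.34 to -0.52). Rrm1, the large subunit of ribonucleotide reductase, was at 353, 314 and 326 with vehicle and at 244, 258 and 275 with pravastatin (-0.35 ± 0.07, adjusted p = 0.0109, and 0.0603 without male vehicle 1). Tyms, thymidylate synthase, was at 43.7, 37.6 and 37.0 and at 23.9, 28.7 and 33.5 (-0.46 ± 0.12, adjusted p = 0.0325). The groups of both genes were apart. The call of Tyms was lost without any male library but pravastatin 3, with an adjusted p of up to 0.123. Tk1 was at 38.4, 31.7 and 31.6 and at 22.6, 22.5 and 25.2 (-0.52 ± 0.10, adjusted p = 0.00783).

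The cyclins E, partners of Cdk2 at the start of S phase, fell, whereas E2f1 did not pass. Ccne1 was at 31.1, 27.4 and 28.1 with vehicle and at 19.98, 19.3 and 21.0 with pravastatin in males (-0.51 ± 0.09, adjusted p = 0.00462). In females it was at 27.3, 12.9 and 17.0 and at 22.2, 11.2 and 13.0, so that it was lower in all 6 treated cultures. Ccne2 was at 36.2, 35.9 and 32.9 and at 23.5, 25.8 and 26.2 in males (-0.47 ± 0.09, adjusted p = 0.00591). E2f1, a transcription factor of many of these genes, was at 19.6, 18.9 and 19.3 and at 17.4, 18.4 and 19.8 in males, with overlapping groups (-0.06 ± 0.09, adjusted p = 0.740). In contrast to its small difference in males, E2f1 in female culture 2 stood at 7.56 and 5.68, against 17.4 to 22.7 in the 8 libraries outside female cultures 2 and 3.

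Ung had the largest fold change of the 43 members in males. It was at 25.1, 20.9 and 21.7 with vehicle and at 13.9, 12.7 and 14.3 with pravastatin, a fall of 38.8% (-0.71 ± 0.10, adjusted p = 0.00144). In females it was at 23.7, 5.02 and 11.6 and at 15.3, 7.13 and 12.4. Female culture 1 showed the male pattern, and the treated library was the higher one in cultures 2 and 3. Chaf1b and Chaf1a, subunits of the chromatin assembly factor that deposits histones behind the fork, fell by 0.38 and 0.32 on the log2 scale. Chaf1b was at 47.7, 41.4 and 41.8 and at 32.0, 33.2 and 34.6 (SE 0.08, adjusted p = 0.0157), a call lost without male vehicle 1 or male pravastatin 2 (adjusted p up to 0.0792). Uhrf1, which guides maintenance methylation of new DNA, and Slbp did not pass (adjusted p = 0.0857 and 0.610). Slbp had overlapping male groups, at 74.8, 80.3 and 67.7 and at 64.9, 71.4 and 75.1.

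**Figure D3:**
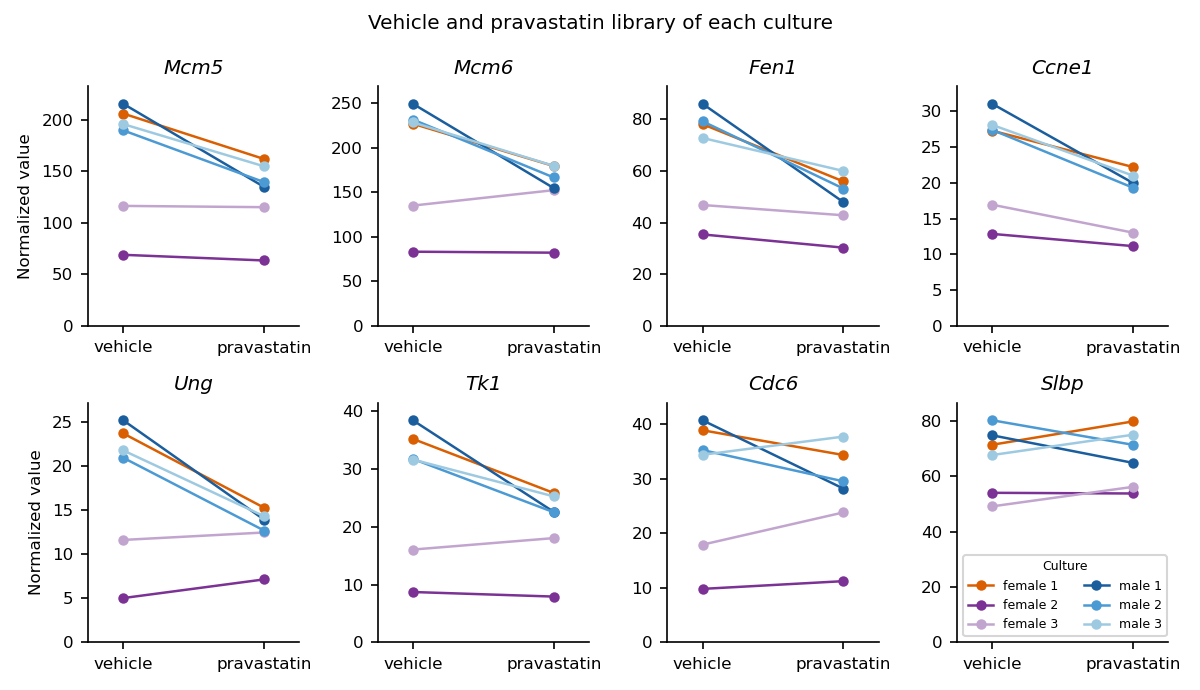
Normalized value of 8 members (panels) in the vehicle and pravastatin library of each culture (points joined by a line, 1 colour per culture). Mcm5, Fen1 and Ccne1 slope downward in all 6 cultures, and Mcm6 and Tk1 in all but female culture 3. Ung slopes downward in female culture 1 and the male cultures only, and Slbp has no common direction.

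In both sexes together none of the 43 members passed the test with sex as a covariate, where 0.311% of 15093 genes fell. The median log2 fold change was -0.22, against -0.01 for all genes, and 42 of 43 estimates were below 0. There were 5 members at an unadjusted p under 0.05, and the smallest adjusted p was 0.160. Counts of 0 were also found with edgeR (5 at an unadjusted p under 0.05) and DESeq2 (6). Vehicle and pravastatin libraries of the same culture deviated together, and with the culture as a block 21 members fell and none rose, against 8.13% and 10.5% of genes. The smallest blocked p were those of Ccne1 (-0.40 ± 0.07, adjusted p = 0.00137), Mcm7 (-0.31 ± 0.05, adjusted p = 0.00138) and Fen1 (-0.42 ± 0.08, adjusted p = 0.00266). By role, the blocked calls were 1 of 4 licensing factors, 5 of 6 MCM subunits, 3 of 5 helicase activators, 1 of 6 primase and polymerase genes and 4 of 6 clamp genes. The remainder were 1 of 4 single-strand and Okazaki genes, 3 of 4 nucleotide supply genes, 2 of 3 S phase entry genes and 1 of 5 chromatin genes. Without female cultures 2 and 3, 37 members fell, with the block and without it, against 8.26% of 14694 genes without it. That fit rests on the male cultures and female culture 1 alone. The cultures left out had median changes of the members of -0.01 and 0.11 with pravastatin. Without female vehicle 2 alone, 1 member passed, Gins3 (-0.43, adjusted p = 0.0292).

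Female cultures gave no call among the 43 members. The median log2 fold change was -0.06, and 33 of 43 estimates were below 0. None had an unadjusted p under 0.05 by limma, edgeR or DESeq2, and no gene of 15185 was called lower (0%). With the culture as a block, 5 members had an unadjusted p under 0.05 and none was called (smallest adjusted p = 0.171, Mcm7), against 0.184% of genes.

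Within single cultures the 43 members were lower with pravastatin in female culture 1 and in the male cultures. The median log2 difference between the treated and the vehicle library was -0.26 in female culture 1, with 41 of 43 members lower, where 50.4% of all genes were lower. It was -0.53, -0.36 and -0.24 in male cultures 1, 2 and 3, with 43, 43 and 38 members lower, where 49.6%, 50.95% and 52.1% of genes were. In male culture 3 the members that were not lower were Cdc6, Rpa1, Lig1, E2f1 and Slbp. Female culture 2 had a median of -0.01 with 23 members lower and 20 higher, and female culture 3 had a median of 0.11 with 7 lower and 36 higher, where 50.5% and 50.6% of genes were lower. The members farthest apart in female culture 3 were Cdc6 at 0.40 and Pole at 0.38, against Gins3 at -0.38 and Ccne1 at -0.37. Lower in all 6 cultures were Mcm5, Mcm7, Rfc2, Rfc5, Fen1 and Ccne1. A further 15 members were lower in 5 cultures, 18 in 4, and Cdc6, Rpa1, Lig1 and Slbp in 3. These differences are from 1 library per treatment in each culture and have no replicate within it.

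**Figure D4:**
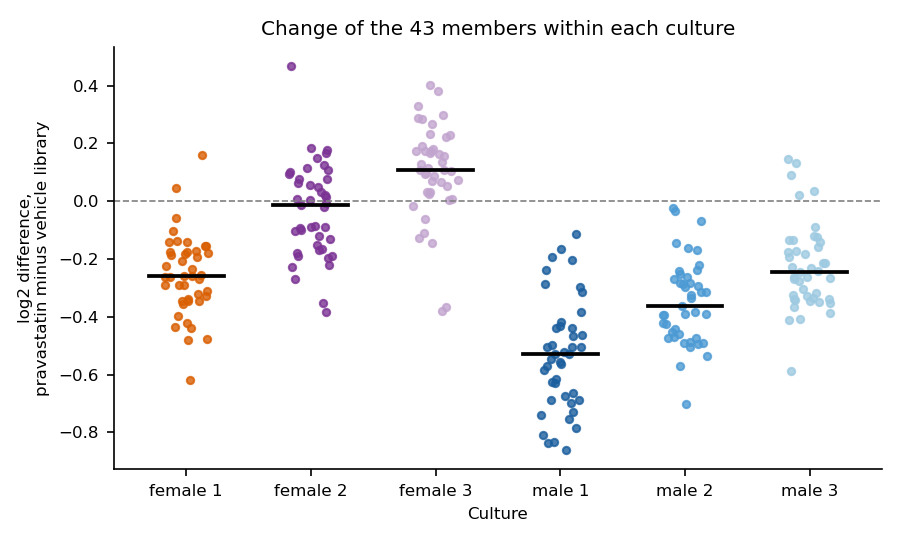
Log2 difference between the pravastatin and the vehicle library of each culture (y axis) for the 43 members (points), with a black line at the median of each culture (x axis). Medians lie at -0.26, -0.01 and 0.11 in female cultures 1, 2 and 3 and at -0.53, -0.36 and -0.24 in male cultures 1, 2 and 3.

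Whether the response differed between the sexes was tested as an interaction. No member passed and no gene of 15765 did (0%), although 42 of 43 estimates were more negative in males, with a median difference of -0.31. No member had an unadjusted p under 0.05 by limma, edgeR or DESeq2. With the culture as a block 27 members had one, where 3.82% of genes had one in this direction, and the smallest adjusted p was 0.644. Without female cultures 2 and 3, which leaves female culture 1 alone for that sex, the median difference was -0.10. The fall called in males and not in females is therefore not shown to differ between them.

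With vehicle, none of the 43 members differed between males and females past the test, where 0.0265% of genes were called higher in males. All 43 estimates were higher in males, with a median log2 difference of 0.67, and 18 had an unadjusted p under 0.05 (smallest adjusted p = 0.354). Counts at that unadjusted p were 8 with edgeR and 15 with DESeq2, also with no call. Without female vehicle 1 all 43 members were called higher in males, as were 21.5% of genes, since both remaining female libraries then came from cultures 2 and 3. Without those cultures the median was -0.00, with 22 estimates below 0 and 21 above, and no member passed, where the only female vehicle library left was assumed to vary like the male ones.

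How far a gene fell with pravastatin in males showed little relation to how low it was in female culture 2. Over the 43 members, the male log2 fold change and the log2 ratio of female vehicle 2 to female vehicle 1 had a Spearman rho of 0.053 and a Pearson r of 0.179. These are correlations across genes that share the same libraries, and genes are not independent replicates. E2f1 and Lig1, for example, stood at 33.3% and 40.0% of female vehicle 1 in female vehicle 2, and had male fold changes of -0.06 and -0.13.

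Beyond the 43 members, a list of 52 other replication genes gave 17 lower and 1 higher in males, with a median of -0.26. With the culture as a block it gave 25 lower and 1 higher. Among all genes 4.36% were lower and 6.08% higher in males, and 8.78% were lower with the block. Gmnn, which encodes the Cdt1 inhibitor geminin, fell by 0.65 on the log2 scale (SE 0.12, adjusted p = 0.00565), and Supt16, a subunit of the histone chaperone FACT, fell by 0.27 (SE 0.06, adjusted p = 0.0235). Rnaseh2b (-0.32, adjusted p = 0.0528), Gins4 (-0.28, adjusted p = 0.127) and Rbbp4 (-0.16, adjusted p = 0.144) did not pass. The gene that rose was Pold2, the second subunit of polymerase delta (0.35 ± 0.08, adjusted p = 0.0238), while the catalytic subunit Pold1 fell. None of the 52 passed in females. In both sexes together none passed without the block (DESeq2 called 3 lower). With it 15 fell and 1 rose, against 8.13% and 10.5% of genes. A list of 24 mitosis and spindle genes, with Mki67 and Top2a among them, gave 18 lower in males, with a median of -0.33. With the block it gave 23. The same shares of all genes, 4.36% and 8.78%, stand beside these counts. The fall in males was thus also seen in the list of mitosis and spindle genes. Fewer cycling cells and less replication mRNA in each cycling cell cannot be told apart here.

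For 12 of the 43 members, exons share bases with a listed gene on the opposite strand. They are Orc6, Mcm7, Cdc45, Gins2, Rfc2, Rfc4, Rfc5, Fen1, Lig1, Tk1, Ccne2 and Chaf1a, and their values are uncertain to that extent, since the study names a stranded kit and HTSeq at its default settings, and whether that setting matched the kit was not checked. Among the 31 members without such an overlap, 20 fell in males, with a median of -0.35. A pseudogene, Pcna-ps2, is listed beside Pcna, and reads could be divided between them.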

How the data were processed

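The 12 libraries were made with a stranded total RNA kit. HTSeq read counts per gene were made by the authors over a gene model that combined the reference annotation with their own Cufflinks assemblies. The alignments behind them came from TopHat2 2.1.1 on GRCm38, after technical replicates had been pooled. The deposited signal values are these read counts divided by an effective library size, and all were whole reads within 0.001 read once the step of each library was known. The 3 sheets hold the same values. The authors' own fold changes and p-values for each comparison were not used.

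Members, lists and roles were chosen with earlier results of these data known. As the files hold normalized values, limma 3.58.1 (R 4.3.3, lmFit and eBayes with a trend) was fitted to log2(value + 0.5) of every gene above 1 in at least 6 libraries (both sexes, sex as covariate) or 3 libraries (other comparisons). All adjusted p are from limma, with Benjamini-Hochberg adjustment across every gene tested, and fold changes are on that log2 scale. A call needed an adjusted p under 0.05. P-values without the block measure the spread between embryo cultures, and these fits treat the vehicle and pravastatin libraries of a culture as independent. Those with the block measure how far the differences within a culture vary from culture to culture. Alternatives were edgeR 4.0.16 and DESeq2 1.42.0 on the recovered reads, other pseudocounts, filters and scalings, each library left out, and the culture as a block. Numbers and sample codes pair the libraries: residuals of same-numbered libraries correlated in females (0.871, 0.871 and 0.428) and, more weakly, in males (0.182, 0.179 and 0.303), although female vehicle 3 correlated at 0.425 with female pravastatin 2. Gene names in the text are those of the 2 members per role with the smallest p in both sexes and of 5 other replication genes by the same rule. All other members, Pold2 and the genes that mark libraries were named after their values were seen. On simulated data, changes of 0.58 on the log2 scale were recovered for 83% of genes in both sexes (15170 genes), 40% in males (15247), 36% in females (15225) and 4% in the interaction (15572). The simulated libraries held no difference between cultures, and the block recovered 84% in both sexes. These shares therefore do not give the power of the fits to the real cultures, which differed.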

Additional observations from a re-analysis of the deposited data

Results flagged for a closer look

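Among the 18 members named by rule, each was examined over the 6 vehicle libraries, the 6 pravastatin libraries and the 6 differences within a culture, 54 groups in all. In 2 groups a library lay far from the others by Dixon's criterion, which chance meets in about 1 of 20 groups. With pravastatin, Rrm1 in female pravastatin 2 stood at 152 against 230.4 to 275 in the other 5 libraries, and its gap to the nearest library was 0.636 of the whole range. Ung in female pravastatin 2 stood at 7.13 against 12.4 to 15.3, with a gap of 0.654 of the range. Female culture 2 is also the culture with the highest Gfap.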

How the results depend on the processing

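In both sexes together, 0 members were called lower. The count became 21 with the culture as a block, 22 with edgeR and the block, and 37 without female cultures 2 and 3, with or without the block. The count of 37 rests on the male cultures and female culture 1 alone. When 1 library was left out, the count in both sexes was 0 to 1, with 1 reached without female vehicle 2. In males the count of 30 became 18 to 33 when 1 library was left out, with 18 and 19 without male vehicle 1 and male vehicle 2. With vehicle, the 0 members called higher in males became 0 to 43 when 1 library was left out, with 43 reached without female vehicle 1. None of the 18 members named by rule changed direction in both sexes together or in males under any alternative run. With the culture as a block the males gave 35 calls and the females 0. Leaving out female cultures 2 and 3 with the block was added after the data were seen. Other pseudocounts, filters, scalings and DESeq2 left the male count between 30 and 37. Rescaling to library totals moved the median of all genes in males from -0.00 to -0.08, and that of the members from -0.36 to -0.44. The fewest reads behind any member value were 56, against a floor of 3 reads. Whether depth limited calls near the threshold was not tested. Each group has 3 libraries.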
